A study of Mus musculus with 17 samples.

Results

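The comparison described here sets crypts of the mouse small intestine against the fraction of epithelial cells labelled IEC, both taken after hepatectomy, the surgical removal of part of the liver. The members were chosen by title and hold 4 of the series' 17 samples, 2 crypt libraries and 2 IEC libraries. All 8 small intestinal libraries, the other 4 being crypts and IEC of sham-operated mice with 2 libraries each, entered 1 fit so that they share the estimate of the spread. All 8 came from wild-type (WT) mice, and total RNA was extracted with a Qiagen kit and sequenced in bulk. The labels give no time after surgery, age, sex, gut segment, method of separating the fractions or animal. Because nothing says that 2 libraries of a group came from separate animals, the p-values measure the spread between these libraries, which may be technical. The remaining 9 samples are livers of wild-type mice in an experiment labelled DSS and were not used.

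The lining of the small intestine renews itself from stem cells at the base of the crypts. Their daughters divide in the crypt and then differentiate, into absorptive enterocytes that move up the villus or into secretory Paneth, goblet, enteroendocrine and tuft cells. Paneth cells stay beside the stem cells at the crypt base, whereas goblet and tuft cells lie in crypt and villus alike. The series concerns a signal from the liver to intestinal stem cells, the secreted protein PEDF (pigment epithelium-derived factor, gene Serpinf1).

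Total counts were 34089736 and 43580050 in the hepatectomy crypts and 36116264 and 33868096 in the hepatectomy IEC, and lay between 26609786 and 43580050 over all 8 libraries. The fractions differed in the share taken by CT010467.1, a gene model with ribosomal RNA sequence, which held 12.9% and 16.3% of the counts in the crypts and 4.98% and 5.88% in the IEC. Mitochondrial genes held between 7.30% and 8.77% in the 4 hepatectomy libraries. The repeat-like model Gm10800 held 3.44% to 5.12% in these 4 libraries, 1.83% and 2.39% in sham IEC, and 0.102% and 0.0717% in sham crypts. Its part alone in any value set against sham was not tested. A fit without it, CT010467.1, Lars2 and mitochondrial genes is given below. Values below are CPM (counts per 1000000 counts), scaled by edgeR's trimmed mean of M values, given as crypt libraries first and IEC libraries second, and log2 fold changes (log2FC) are crypts over IEC with the standard error (SE) of the fit. A gene is called where the adjusted p (edgeR quasi-likelihood F test, Benjamini-Hochberg over all genes tested) was under 0.05.

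After hepatectomy the crypts had higher levels of 4780 and lower levels of 4665 of the 18207 genes tested, 26.3% and 25.6% (51.9% in all). The larger differences were mostly on the IEC side. Among called genes, 818 (4.49%) were at least 2-fold higher in crypts and 1944 (10.7%) at least 2-fold lower. Both crypt libraries lay above both IEC libraries for 6888 genes (37.8%) and below both for 6692 (36.8%). The median log2FC over all genes tested was 0.01. With so large a share of genes called, a single call says little, and the gene groups below are read by size and by how many of their members moved one way.

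The labels were first set against markers of the cell types. Crypts had more RNA of cycling cells and less of mature enterocytes. Mki67 (chr7:135689784-135716361, mm10), a protein of dividing cells, stood at 105 and 100 CPM in crypts and 46.5 and 42.9 in IEC (log2FC 1.20 ± 0.07, adjusted p = 1.62e-08). Alpi (chr1:87098002-87101606), an alkaline phosphatase made by mature enterocytes, read 394 and 398 against 2102 and 2008 CPM, 5.19-fold lower in crypts (log2FC -2.38 ± 0.04, adjusted p = 8.74e-13). The stem cell markers did not all go with the crypt label. Olfm4 (chr14:79984081-80023139), a secreted protein of crypt base cells, was higher in crypts at 924 and 936 against 637 and 629 CPM (log2FC 0.56 ± 0.04). Lgr5 (chr10:115450311-115587780), the R-spondin receptor that defines these stem cells, was lower in crypts at 8.67 and 11.6 against 14.4 and 14.6 CPM (log2FC -0.51 ± 0.12, adjusted p = 0.0032). Ascl2, a transcription factor of the same cells, read 12.7 and 13.1 against 13.2 and 13.0 CPM and was not called (adjusted p = 0.91). Smoc2, the remaining stem cell marker, was slightly higher in crypts at 91.1 and 98.8 against 88.0 and 82.4 CPM (log2FC 0.16 ± 0.06, adjusted p = 0.0333). The Paneth cell markers Lyz1, Ang4, Itln1 and Mmp7 were all lower in crypts, against the position of these cells at the crypt base. The fractions are therefore called by their labels here, and what cells each holds was not measured.

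**Figure D1:**
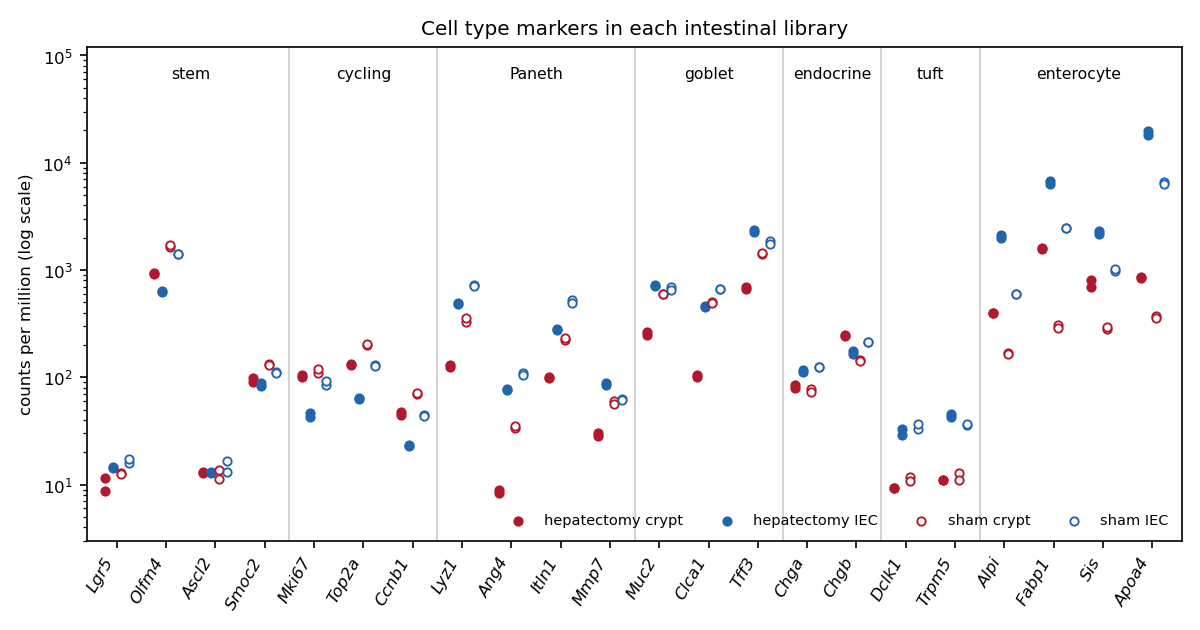
CPM on a log scale for 22 cell type markers in each of the 8 intestinal libraries, with filled points for hepatectomy, open points for sham, red for crypt and blue for IEC. Cycling markers were higher in crypts, Paneth, goblet, tuft and enterocyte markers higher in IEC after hepatectomy, and Lgr5 was lower in crypts.

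Of 20 genes listed for crypt base stem cells, 10 were higher in crypts, 6 lower and 4 not called (median log2FC 0.22). The higher ones included receptors and matrix-binding proteins of the lower crypt. Cd44, a hyaluronan receptor, rose from 11.3 and 11.2 CPM in IEC to 25.6 and 26.7 in crypts (log2FC 1.22 ± 0.07). The ephrin receptor Ephb2 stood at 31.9 and 26.3 against 14.7 and 14.5 CPM (log2FC 0.99 ± 0.10). Lrig1, a brake on ErbB receptor signalling, read 28.0 and 33.4 against 15.4 and 15.2 CPM (log2FC 1.01 ± 0.09). In these 3 genes both crypt libraries lay above both IEC libraries, as in 37.8% of all genes tested. Lower in crypts, beside Lgr5, were Tnfrsf19, Hopx, Tert, Igfbp4 and the Wnt receptor ligase Rnf43, with log2FC between -0.80 and -0.32. Of these, Tnfrsf19 and Tert were no longer called without the first hepatectomy IEC library (adjusted p = 0.152 and 0.0727) or without the second crypt library (0.0722 and 0.0899). Sox9, Bmi1 and Msi1 were not called, with log2FC of 0.03, -0.01 and 0.29.

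Wnt signalling from the crypt surroundings sustains stem cells, and its target genes read its output. Of 20 tested targets and feedback inhibitors, 9 were higher in crypts and 4 lower (median log2FC 0.27). Over all genes tested, 26.3% were higher and 25.6% lower. Ccnd1 (chr7:144929931-144939925), the cyclin that drives entry into S phase, showed the largest value at 250 and 244 CPM against 53.8 and 50.1, a 4.76-fold higher level in crypts (log2FC 2.25 ± 0.05, adjusted p = 4.3e-12). The transcription factors Cdx1 (log2FC 1.60 ± 0.18) and Myc (log2FC 0.86 ± 0.06) and the feedback genes Axin2 (0.35 ± 0.07) and Znrf3 (0.51 ± 0.09) were higher too. Sp5, another target, went the other way at 9.96 and 9.74 against 30.4 and 30.6 CPM (log2FC -1.63 ± 0.09). Notum and Lef1 were below the filter on low counts.

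Among Wnt ligands and receptors, 5 of 12 tested genes were higher in crypts and 3 lower (median log2FC 0.68). The receptors Fzd5 (108 and 92.0 against 61.1 and 58.8 CPM), Fzd6, Fzd7, Lgr4 and the co-receptor Lrp5 were the higher ones, with log2FC of 0.61 to 0.97. The ligands Wnt3, Wnt6 and Wnt9b were the lower ones, at 1.5 and 0.955, 0.881 and 0.955, and 0.411 and 0.373 CPM in crypts. DESeq2 called 1 of the 3 ligands, with adjusted p of 0.0822 for Wnt3 and 0.132 for Wnt9b, and so did the fits without the first IEC or the second crypt library of the hepatectomy mice. The share of the list called lower was near that of all genes tested. Wnt11, Fzd1, Fzd8 and Lrp6 were not called, although Fzd1 was called higher with no filter on low counts (log2FC 0.83, adjusted p = 0.0167), in the hepatectomy libraries alone (0.76, adjusted p = 0.0318) and without the first or the second sham crypt library (0.80 and 0.78, adjusted p = 0.0267 and 0.0274). Wnt3 in the epithelium is made by Paneth cells, whose markers were also lower in crypts, and their part in the ligand values was not tested.

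Every one of the 29 mitosis genes was higher in crypts after hepatectomy, with log2FC from 0.49 (Kif20a) to 1.31 (Cenpe) and a median of 0.95. In each of them both crypt libraries lay above both IEC libraries, as in 37.8% of all genes tested. Top2a, which untangles chromosomes, stood at 134 and 132 against 62.3 and 64.6 CPM (log2FC 1.06 ± 0.05). Cdk1, the kinase that starts mitosis, stood at 62.4 and 61.4 against 29.9 and 32.9 CPM (log2FC 0.98 ± 0.06). Its partner Ccnb1, the anaphase activator Cdc20 and the ubiquitin-conjugating enzyme Ube2c had log2FC of 0.98, 0.99 and 1.16. Of 30 S phase genes, 28 were higher in crypts and 1 lower (median log2FC 0.58). The helicase subunits Mcm2 to Mcm7 lay between 0.42 and 0.68, and the replication gene Cdc45 at 1.01. Ccne2, a cyclin of S phase entry, was not called (adjusted p = 0.75).

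Mitosis genes share promoter elements that hold their transcription to the late cell cycle, a CCAAT box bound by NF-Y and a cell cycle homology region (CHR, letters TTTGAA). RefSeq promoters (GRCm38.p6) matched 25 of the 29 mitosis genes. In the 250 bases before the start site, on either strand, 19 of the 25 (76.0%) held CCAAT, against 34.5% of the 27025 promoters in the table. TTTGAA was present in 7 of 25 (28.0%) against 16.3%, and both together in 7 of 25 (28.0%) against 5.73%. The 150 bases before the start of 3 genes with both are shown for the spacing of the elements, 5′ to 3′ on the gene's strand, with the letters of both elements, on whichever strand they lie, in capitals. Cdc20 lies at chr4:118437344-118437493 on the minus strand, Cdk1 at chr10:69352913-69353062 on the minus strand and Ube2c at chr2:164769779-164769928 on the plus strand.
Cdc20: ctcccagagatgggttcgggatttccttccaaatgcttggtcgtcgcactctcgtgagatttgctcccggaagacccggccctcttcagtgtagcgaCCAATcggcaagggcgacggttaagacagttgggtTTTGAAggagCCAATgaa
Cdk1: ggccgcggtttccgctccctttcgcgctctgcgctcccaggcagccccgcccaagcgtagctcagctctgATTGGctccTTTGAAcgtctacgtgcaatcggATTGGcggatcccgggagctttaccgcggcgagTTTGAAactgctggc
Ube2c: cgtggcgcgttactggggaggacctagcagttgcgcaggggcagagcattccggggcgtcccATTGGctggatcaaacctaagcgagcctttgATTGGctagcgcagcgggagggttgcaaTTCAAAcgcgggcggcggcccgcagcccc
The element nearest the start began 8 bases before it in Cdc20, 15 in Cdk1 and 29 in Ube2c. A match describes letters in a window and was not tested for binding.

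All 20 ribosome biogenesis genes were higher in crypts, with log2FC between 0.26 and 0.89 (median 0.62). Ncl, the nucleolar protein nucleolin, stood at 291 and 299 against 175 and 169 CPM (log2FC 0.78 ± 0.04), and the nucleolar helicase Ddx21 at 55.3 and 54.7 against 30.3 and 28.9. The ribosomal RNA model CT010467.1 also took a larger share of the counts in crypts. A fit without CT010467.1, Gm10800, Lars2 and mitochondrial genes, a setting chosen after seeing the data, shared 97.5% of all hepatectomy calls. The part of CT010467.1 alone in these values was not tested. Cell cycle inhibitors were split, with 2 of 11 higher (1 without the first IEC or the second crypt library) and 5 lower. Cdkn2c, the p18 inhibitor of Cdk4 and Cdk6, was among the higher ones at 11.6 and 15.2 against 2.04 and 2.64 CPM (log2FC 2.53 ± 0.19). Cdkn1a, the p21 inhibitor, stood at 137 and 137 against 232 and 228 CPM (log2FC -0.75 ± 0.04), and the antiproliferative gene Btg2 at 26.4 and 27.2 against 95 and 86.9 (log2FC -1.76 ± 0.06). Of 12 tested p53 targets, a list that shares Cdkn1a, 2 were higher (1 without the first IEC or the second crypt library) and 7 lower (4 without the second IEC or the first crypt library, or with no filter on low counts).

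**Figure D2:**
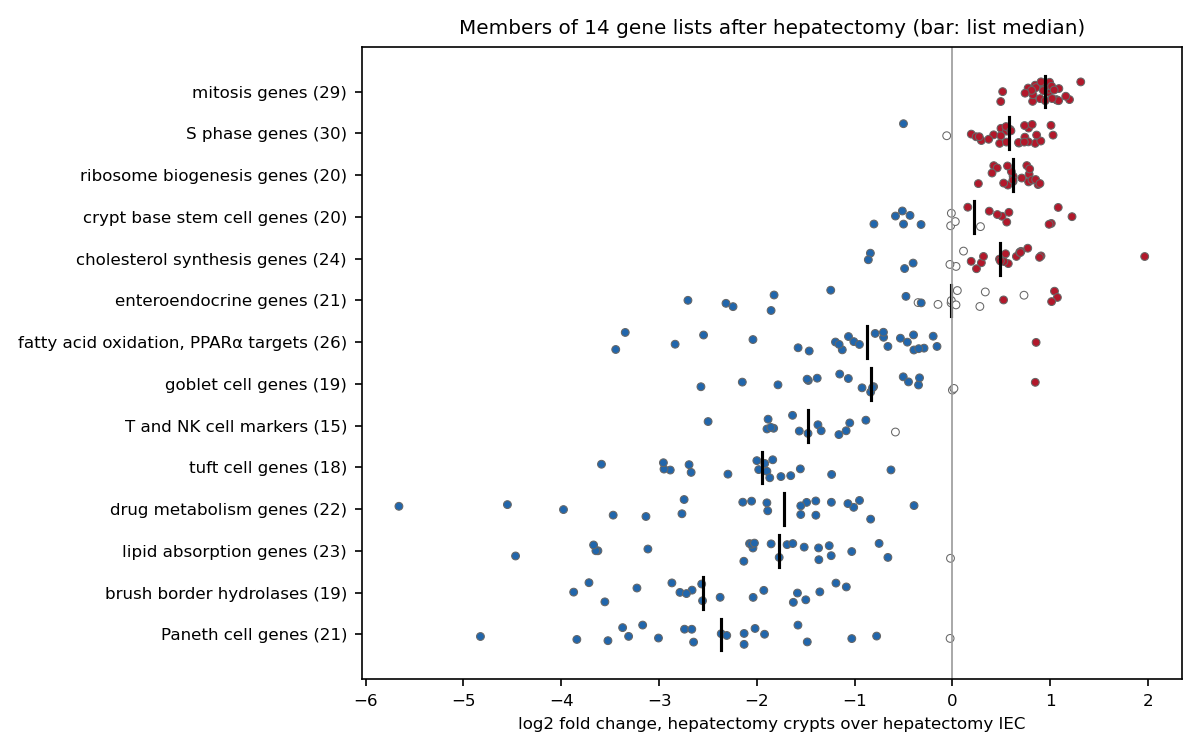
Log2 fold change of hepatectomy crypts over hepatectomy IEC for the tested members of 14 gene lists, the number tested in brackets, red for called higher, blue for called lower, white for not called, with a bar at the list median. Medians ran from 0.95 for mitosis genes to -2.56 for brush border hydrolases.

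Paneth cells secrete lysozyme and alpha-defensins. Of 21 tested Paneth cell genes, 20 were lower in crypts and none higher (median log2FC -2.37). Lyz1 (chr10:117287797-117292868), the lysozyme, stood at 126 and 132 against 490 and 485 CPM (log2FC -1.92 ± 0.05, adjusted p = 1.35e-11). The antimicrobial ribonuclease Ang4 was 8.84 and 8.34 against 77.6 and 76.6 CPM (log2FC -3.17 ± 0.07). Each of the called genes had both crypt libraries below both IEC libraries, as did 36.8% of all genes tested. Defensins varied, from Defa26 at 2.26 and 2.54 against 5.06 and 4.79 CPM (log2FC -1.03) through Defa24 at 296 and 294 against 1173 and 1217 CPM (log2FC -2.02) to Defa36 at 55.0 and 51.2 against 589 and 632 CPM (log2FC -3.52) and the scarce Defa35 at 0.0294 and 0.186 against 3.09 and 3.75 CPM (log2FC -4.83). The defensins are near-identical copies, so the split of reads among them is uncertain, while all 15 tested went one way. Pla2g2a, a secreted phospholipase, was not called at 6.46 and 6.36 against 6.67 and 6.36 CPM.

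**Figure D3:**
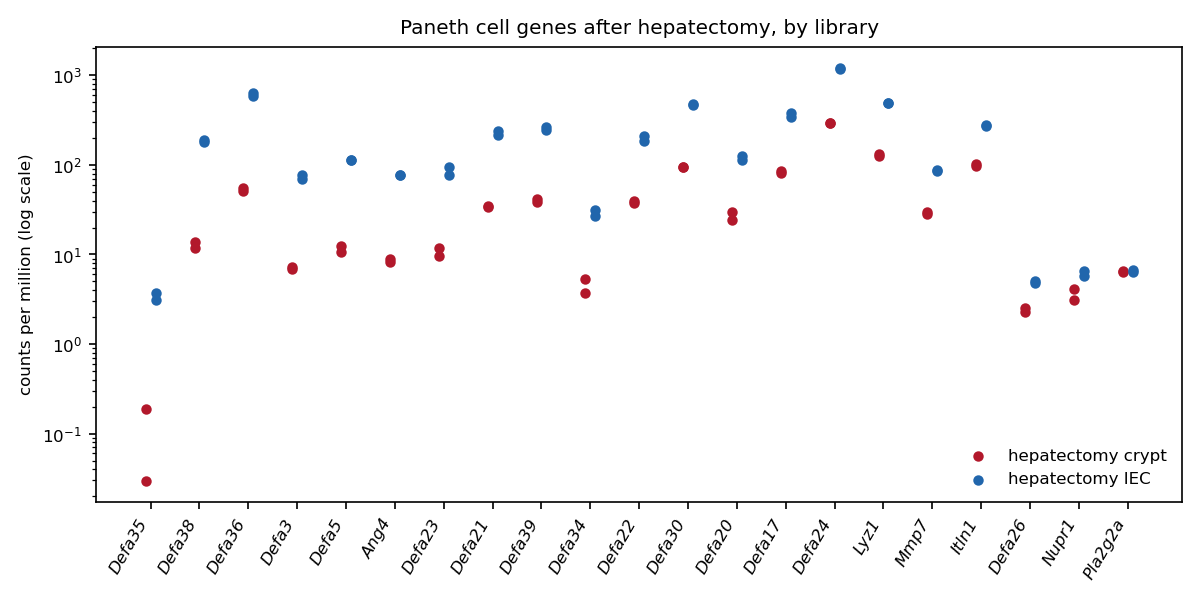
CPM on a log scale for the 21 tested Paneth cell genes in the 2 hepatectomy crypt libraries (red) and the 2 hepatectomy IEC libraries (blue), ordered by fold change. Crypts lay below IEC for all but Pla2g2a.

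Goblet cells make the mucus layer. Of 19 goblet cell genes, 16 were lower in crypts and 1 higher (median log2FC -0.84). Muc2 (chr7:141690340-141754693), the main mucin, stood at 263 and 250 against 705 and 720 CPM, 2.78-fold lower in crypts (log2FC -1.47 ± 0.04, adjusted p = 4.14e-11). Larger differences were seen in Zg16, a lectin that binds bacteria in mucus (385 and 365 against 2138 and 2322 CPM, log2FC -2.57 ± 0.05), and in Clca1, a mucus-processing protein (99.8 and 106 against 462 and 452 CPM, log2FC -2.15 ± 0.05). The transcription factors of the lineage moved less, Spdef at 10.9 and 10.4 against 12.6 and 14.4 CPM (log2FC -0.35) and Foxa3 at -0.45. Klk1 and Creb3l1 were not called, and Galnt12, a glycosyltransferase with unlike crypt libraries (10.6 and 16.7 CPM), was the higher one.

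Tuft cells sense luminal chemicals and start type 2 responses. All 18 tuft cell genes were lower in crypts (log2FC -3.59 to -0.63, median -1.95). Dclk1 (chr3:55242364-55539068), the kinase that marks them, stood at 9.22 and 9.27 against 33.0 and 29.3 CPM (log2FC -1.75 ± 0.09), and the taste channel Trpm5 at 11 and 11.1 against 42.8 and 46.0 (log2FC -2.00 ± 0.08). Alox5ap, which leukocytes express as well, stood at -1.87. Leukocyte markers were also lower in crypts (below), and their part in this gene was not tested.

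Hormones of the enteroendocrine cells went both ways. Of 21 tested genes, 4 were higher in crypts, 8 lower and 9 not called (median log2FC -0.01). Among all genes tested, 26.3% were higher and 25.6% lower. Gip, the incretin of K cells, stood at 58.3 and 56.1 against 264 and 278 CPM (log2FC -2.24 ± 0.05). Nts (neurotensin, -2.70), Sct (secretin, -2.32), Pyy (-1.85), Sst (somatostatin, -1.82) and Cck (-1.24) were lower as well. So was the granule protein Chga, at 79.7 and 84.1 against 116 and 112 CPM (log2FC -0.48 ± 0.05). On the other side, Gcg, which encodes GLP-1, stood at 23.4 and 23.3 against 11.1 and 11.6 CPM (log2FC 1.04 ± 0.09), Tac1 (substance P) at 19.0 and 18 against 9.10 and 8.43 (log2FC 1.07 ± 0.10) and the granule protein Chgb at 244 and 246 against 176 and 165 (log2FC 0.52 ± 0.05). Fev, a factor of serotonin cells, was the fourth (log2FC 1.01 ± 0.22). Tph1, which makes serotonin, was not called, with overlapping libraries at 10.5 and 13.2 against 13.4 and 10.5 CPM.

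Notch signalling sets the choice between absorptive and secretory fates. Of 15 tested genes, 5 were higher in crypts and 5 lower (median log2FC 0.00), where 26.3% of all genes tested were higher and 25.6% lower. The test against 2-fold change called 1 of the list higher and 0 lower. The receptors Notch1 (24.9 and 22.6 against 13.9 and 14.3 CPM, log2FC 0.75 ± 0.09) and Notch2 (log2FC 1.03 ± 0.12), the effector Rbpj (0.60) and the targets Hes1 (0.80 ± 0.16) and Nrarp (19.8 and 30.0 against 7.65 and 7.32 CPM, log2FC 1.74 ± 0.16) were higher. The ligands Dll1 (20.8 and 23.5 against 37.6 and 35.5 CPM, log2FC -0.72 ± 0.09) and Dll4 (-0.90), the glycosyltransferase Mfng (-1.12) and the secretory factors Atoh1 (-0.47) and Spdef were lower. The lower genes numbered 3 without the second IEC library, where Spdef had adjusted p = 0.0996 and Mfng 0.13, and Mfng was not called by DESeq2 either (adjusted p = 0.144). BMP and Id genes gave 1 higher and 5 lower of 14, with Id2 at 17.7 and 18.8 against 52.4 and 48.7 CPM (log2FC -1.47 ± 0.07) and Bmp2 at -0.79.

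Enterocytes digest and absorb at the brush border. All 19 brush border hydrolases were lower in crypts (log2FC -3.87 to -1.08, median -2.56). In each the crypt libraries lay below the IEC libraries, as in 36.8% of all genes tested. Lct, the lactase, stood at 85.5 and 94.4 against 1186 and 1181 CPM (log2FC -3.72 ± 0.05), and Treh, the trehalase, at 60.5 and 65.6 against 603 and 578 (log2FC -3.23 ± 0.05). Sis, the sucrase-isomaltase, differed less, at 805 and 696 against 2168 and 2336 CPM (log2FC -1.58 ± 0.06). Microvillus structure genes differed less again, with 12 of 14 lower (median log2FC -1.00). Vil1, the actin bundler villin, stood at 782 and 754 against 1167 and 1290 CPM (log2FC -0.68 ± 0.05), while Baiap2l2 was higher in crypts at 93.5 and 124 against 40.6 and 42.0 (log2FC 1.40 ± 0.11).

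Of 23 lipid absorption genes, 22 were lower in crypts (median log2FC -1.77). Apoa4 (chr9:46240696-46243459), an apolipoprotein of chylomicrons, had the largest difference among them at 839 and 869 against 19625 and 18169 CPM, 22.1-fold lower in crypts (log2FC -4.47 ± 0.05, adjusted p = 3.96e-14). The fatty acid carrier Cd36 stood at 9.78 and 11.1 against 137 and 129 CPM (log2FC -3.67 ± 0.08), and Fabp1, the binding protein of the cytosol, at 1577 and 1606 against 6749 and 6340 (log2FC -2.04 ± 0.04). Dgat1, which completes triglyceride synthesis, was the single member not called at 454 and 534 against 495 and 508 CPM, with its libraries overlapping. Of 15 sugar and amino acid transporters, 14 were lower, among them Slc5a1, the sodium-glucose transporter (722 and 721 against 3115 and 2921 CPM, log2FC -2.06 ± 0.04). Slc1a1, a glutamate transporter, was the higher one at 67.2 and 66.8 against 54.4 and 50.6 CPM (log2FC 0.35 ± 0.06).

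The nuclear receptors HNF4A and HNF4G bind near many enterocyte genes, and the core of their element is CAAAGTCCA. RefSeq promoters matched 16 brush border hydrolases and 18 lipid absorption genes. The core was found within 250 bases before the start, on either strand, in 2 of 16 (12.5%) and 0 of 18 (which does not bear on sites elsewhere), against 0.381% of all promoters. TATAAA was found in 6 of 16 (37.5%) and 6 of 18 (33.3%) against 13.0%, and in 0 of 25 mitosis promoters. Shown are 150 bases before the start of both genes with the core and of Fabp1, which has a TATAAA alone, with the core and the TATAAA, on whichever strand they lie, in capitals. Alpi lies at chr1:87101607-87101756 on the minus strand, Treh at chr9:44673083-44673232 on the plus strand and Fabp1 at chr6:71199729-71199878 on the plus strand.
Alpi: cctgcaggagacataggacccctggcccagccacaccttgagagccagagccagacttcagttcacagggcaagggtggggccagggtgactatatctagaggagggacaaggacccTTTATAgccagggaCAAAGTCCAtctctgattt
Treh: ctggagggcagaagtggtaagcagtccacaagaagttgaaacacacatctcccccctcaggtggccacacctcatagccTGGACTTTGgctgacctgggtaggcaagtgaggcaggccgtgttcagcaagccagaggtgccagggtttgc
Fabp1: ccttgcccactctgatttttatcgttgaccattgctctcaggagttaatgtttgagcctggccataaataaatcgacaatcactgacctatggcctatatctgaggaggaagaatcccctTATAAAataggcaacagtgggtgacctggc
TATAAA began 33 bases before the start in Alpi and 30 in Fabp1, and the core 19 bases before it in Alpi and 71 in Treh. The genes of both receptors were unlike each other, Hnf4a at 315 and 337 against 228 and 228 CPM (log2FC 0.52 ± 0.05) and Hnf4g at 120 and 137 against 269 and 248 (log2FC -1.01 ± 0.06).

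Of 22 transcription factors of gut identity, 8 were higher in crypts (4 without the first IEC library, 5 without the second crypt library) and 9 lower. The shares over all genes tested were 26.3% higher and 25.6% lower. Klf5, a factor of proliferating crypt cells, stood at 680 and 713 against 223 and 279 CPM (log2FC 1.47 ± 0.10), and its relative Klf4, of differentiated cells, at 22.1 and 20.5 against 59.8 and 64.8 (log2FC -1.55 ± 0.07). Creb3l3 (-1.68) and Maf (-0.81), known from villus enterocytes, were lower. The IEC libraries were unlike each other for Gata4, at 55.6 and 123 CPM against 161 and 156 in crypts (log2FC 0.83 ± 0.27, adjusted p = 0.0225), and without the first of them the value was 0.38 with adjusted p = 0.143.

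All 22 genes of drug metabolism were lower in crypts (median log2FC -1.72). Cyp3a11 (chr5:145854426-145879964), the main intestinal P450 for foreign compounds, stood at 20.9 and 22.9 against 535 and 493 CPM, 23.5-fold lower (log2FC -4.55 ± 0.06, adjusted p = 1.48e-13). Cyp2c29 (-5.66), Cyp1a1 (-3.98), Cyp2b10 (-3.47) and Cyp2d26 (-3.13) had large differences too, while the glutathione transferase Gstp1 showed the smallest difference (-0.39). Of 26 genes of fatty acid oxidation and PPAR-alpha targets, 25 were lower (median log2FC -0.87). The targets Pdk4 (2.35 and 3.07 against 31.9 and 27.8 CPM, log2FC -3.44 ± 0.16), Cyp4a10 (-3.35) and Angptl4 (-2.84) showed larger values than the enzymes Hadha (-0.20) and Acadvl (-0.46). Cpt1a, which admits fatty acids to mitochondria, was the higher one at 151 and 150 against 80.3 and 86.4 CPM (log2FC 0.86 ± 0.05).

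Cholesterol synthesis genes stood apart from the rest of lipid metabolism, with 17 of 24 higher in crypts and 4 lower (median log2FC 0.49). The enzyme Lss stood at 34.7 and 34.4 against 17.4 and 19.5 CPM (log2FC 0.91 ± 0.07), and Mvd (0.89) and Sqle (0.77) were higher too. Late enzymes of the route were among the lower ones, Dhcr7 at 37.5 and 39.3 against 69.8 and 67.7 CPM (log2FC -0.84 ± 0.05) and Sc5d at -0.86. Of 19 glycolysis and gluconeogenesis genes, 15 were lower, led by Pck1 (17.7 and 16 against 184 and 191 CPM, log2FC -3.48 ± 0.07) and G6pc (-3.19). Hk2, a hexokinase of proliferating cells, was the higher one at 27.2 and 25.8 against 12.7 and 13.5 CPM (log2FC 1.01 ± 0.07). Nuclear genes of oxidative phosphorylation differed little, with 2 of 21 higher, 9 lower and every log2FC between -0.28 and 0.12 (DESeq2 called 0 of them higher). Of 9 ileal bile acid genes, 2 were higher and 6 lower, with the uptake transporter Slc10a2 at 3.26 and 3.61 against 11 and 13.7 CPM (log2FC -1.83 ± 0.15) and the nuclear receptor Nr0b2 at -2.56. The higher bile acid genes numbered 0 without the first IEC library and 1 without either crypt library.

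Of 14 epithelial antimicrobial genes, 5 were higher in crypts and 8 lower, where 26.3% of all genes tested were higher and 25.6% lower. Among the lower ones, the secreted lectin Reg3b stood at 4026 and 3932 against 18504 and 19080 CPM (log2FC -2.24 ± 0.04) and its relative Reg3g at -0.99. Among the higher ones, the hydrogen peroxide maker Duox2 stood at 78.9 and 72.7 against 16.6 and 19.2 CPM (log2FC 2.08 ± 0.08), its maturation factor Duoxa2 at 1.64 and the nitric oxide synthase Nos2 at 27.6 and 28.6 against 13.9 and 13.2 (log2FC 1.05 ± 0.07). Interferon-stimulated genes also divided, 7 of 16 higher and 7 lower, beside the same shares of all genes tested. Igtp and Irgm1, interferon-gamma-induced GTPases, stood at 167 and 168 against 27.8 and 27.9 CPM (log2FC 2.59 ± 0.06) and at 85.0 and 92.6 against 21.6 and 21.4 (log2FC 2.05 ± 0.06). Igtp overlaps Irgm2 on the same strand of the genome, so its reads may be shared. Ifit1 (-1.77), Rsad2 (-1.64), Irf7 (-1.37) and Ifit3 (-1.05) were lower in crypts. Of 7 genes for MHC class II antigen presentation, 4 were higher and 2 lower, all within -0.33 and 0.67.

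Markers of cells other than epithelium were mostly lower in crypts, in the same direction as the Paneth, goblet, tuft and enterocyte genes. Fewer cells of a type and less RNA per cell cannot be told apart in bulk RNA. The 7 erythroid markers summed to 14.8 and 17.6 CPM (of all counts, without scaling) in crypts and 339 and 349 in IEC, and all 5 tested were lower in crypts (median log2FC -4.57), with Hba-a1, an alpha-globin with a near-identical copy, at 5.49 and 6.10 against 166 and 162 CPM. The 14 B and plasma cell markers summed to 23.7 and 27.0 against 127 and 132, with 9 of 13 tested lower and Igha, the IgA heavy chain, at 10.4 and 12.0 against 74.0 and 77.1 CPM. The 16 T and NK cell markers summed to 54.7 and 55.7 against 119.5 and 119.8, with 14 of 15 lower, among them Gzma (granzyme A, 15 and 13.7 against 42.5 and 42.3 CPM) and Ptprc, the leukocyte antigen CD45 (2.09 and 2.73 against 8.77 and 8.50). Macrophage markers gave 8 of 9 lower, with summed levels of 2.58 and 2.25 against 11.5 and 11.1.

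Fibroblast markers went the other way, 5 of 9 tested higher in crypts and 2 lower, at summed levels of 11.3 and 12.6 against 5.48 and 5.55. Dcn, a matrix proteoglycan, was the highest of these at 3.91 and 4.89 against 1.18 and 1.21 CPM (log2FC 1.88 ± 0.22), whereas Pdgfrb (-1.10) and Fn1 (-2.58) were lower and Pdgfra was below the filter. DESeq2 called 2 of the 9 higher, and leaving out the first IEC library, the first crypt library or the second crypt library left 1, 3 and 2. Smooth muscle, endothelial, neural and mast cell markers had sums under 10 on the same scale in every hepatectomy library. The part of other cell types in the differences between the fractions was not tested.

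**Figure D4:**
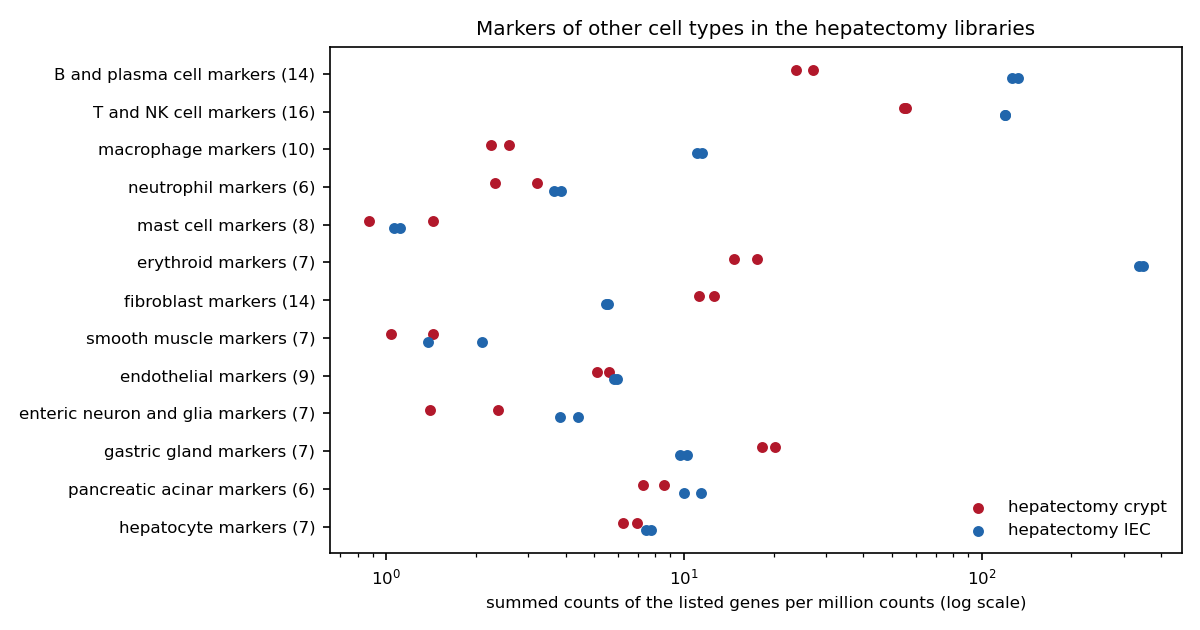
Summed counts of marker genes of 13 other cell types as CPM of all counts, on a log scale, in the 2 hepatectomy crypt libraries (red) and the 2 hepatectomy IEC libraries (blue), with the number of genes in brackets. Erythroid, B cell, T cell and macrophage sums were higher in IEC, fibroblast and gastric sums higher in crypts.

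Clock genes were mostly lower in crypts, 13 of 18 against 2 higher (1 in DESeq2), with a median log2FC of -0.74. Hlf, an output factor of the clock, stood at 0.206 and 0.140 against 2.60 and 3.86 CPM (log2FC -4.22 ± 0.36), Dbp at 10.4 and 12.8 against 24.4 and 39.3 (log2FC -1.45 ± 0.18) and the repressor Per2 at -1.48. Arntl, of the positive limb, was higher (log2FC 0.40 ± 0.08). Immediate early genes gave 1 of 15 higher (0 without the first IEC or the second crypt library) and 9 lower, with Fos at 28.5 and 28.6 against 117 and 116 CPM (log2FC -2.03 ± 0.06). Of 16 genes of the unfolded protein response, 9 were higher and 3 lower, Hyou1 (0.92) and Hsp90b1 (0.49) against Ddit3 (-1.35) and Herpud1 (-0.85). In the list of fetal-like epithelium 1 of 10 was higher, Ly6a (14.4 and 17.0 against 8.87 and 11.5 CPM), and 4 were lower, among them Clu (-2.17), although DESeq2 and the fits without the second IEC or the second crypt library called 2 lower. The labels give no hour of sampling, and handling time in the fractionation is not given either.

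Serpinf1, the gene of PEDF itself, was below the filter in the intestine, with 4 and 3 counts in the hepatectomy crypts and 2 and 2 in the hepatectomy IEC. Proteins reported to bind PEDF differed in direction. Lrp5 (chr19:3584828-3686564) stood at 16.2 and 16.1 against 8.54 and 7.93 CPM, 1.96-fold higher in crypts (log2FC 0.97 ± 0.09, adjusted p = 2.1e-06), while Lrp6 at 31.8 and 25.2 against 25.9 and 24.7 was not called (adjusted p = 0.19) unless the second crypt library was left out (log2FC 0.34, adjusted p = 0.00705). Rpsa, the laminin receptor, was higher in crypts at 507 and 430 against 253 and 295 CPM (log2FC 0.78 ± 0.08), although it overlaps other annotated genes. Pnpla2, a triglyceride lipase, was lower by a small amount at 92.0 and 90.1 against 96.7 and 109 CPM (log2FC -0.18 ± 0.06, adjusted p = 0.024); most fits without 1 library did not call it (-0.09, adjusted p = 0.268, without the second IEC library). Plxdc1 was not called (adjusted p = 0.57) and Plxdc2 was below the filter. Ppara, the fatty acid receptor named with PEDF in lipid metabolism, was lower at 28.6 and 28.6 against 43.6 and 46.6 CPM (log2FC -0.66 ± 0.07).

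Called genes without overlap that averaged 5 CPM or more in the higher fraction (they may be near 0 in the other) were ranked, leaving out predicted models. The largest differences on the IEC side were those of Slc6a3, Cyp2c29, Cym, Gpr151, Rdh16f2, Nat8f2, Hba-a2 and Mbl2, with log2FC from -5.85 to -4.91. Slc6a3 (chr13:73536747-73578672), the dopamine transporter, stood at 0.176 and 0.186 against 11.4 and 10.0 CPM, 59.1-fold lower in crypts (adjusted p = 1.73e-09). On the crypt side they were Exosc6, Tgtp1, Tgtp2, Nox1, Inf2, H2-Q7, Nlrc5 and Mreg. Nox1 (chrX:134086421-134221956), a superoxide-making oxidase, stood at 7.61 and 8.46 against 0.821 and 0.607 CPM, 11.2-fold higher (log2FC 3.48 ± 0.17, adjusted p = 4.26e-09). Tgtp1 at 19.8 and 20.8 against 1.15 and 1.04 CPM and Tgtp2 at 34.3 and 34.7 against 2.0 and 1.89 are paralogous T cell-specific GTPases whose reads can be split between them (log2FC 4.21 and 4.14). Nlrc5, the activator of MHC class I genes, and H2-Q7, such a gene with close copies, stood at log2FC 2.86 and 2.98. Exosc6 had 234 and 915 estimated counts in the crypts and 0 in the 6 other intestinal libraries, which is at least 137-fold higher than a floor of 3 counts per library on the scaled CPM. It lies within Aars and its crypt libraries differ widely from each other, so the value is uncertain.

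To see which of these differences were larger or smaller than without hepatectomy, the crypt over IEC contrast was set against the same contrast in sham mice, which uses other libraries. Across genes the log2FC of both contrasts correlated (Pearson r = 0.54, Spearman rho = 0.60, across genes, which are not independent replicates). Sham crypts and IEC differed in 7035 genes (38.6%, with 19.3% higher in crypts and 19.3% lower), and 5350 genes were called in both with 1 direction, 56.6% of the hepatectomy calls and 76.0% of the sham calls. The median absolute log2FC was 0.45 after hepatectomy and 0.32 in sham. The difference of the contrasts was called for 1666 genes with a higher crypt over IEC ratio after hepatectomy (9.15%) and for 1833 with a lower one (10.1%). Leaving out the first sham crypt library brought the latter to 999. Without CT010467.1, Gm10800, Lars2 and mitochondrial genes, a setting chosen after seeing the data, the share of higher calls moved from 47.6% to 58.8%.

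Several lists, goblet cell genes among them, had most members called lower in this comparison, where 10.1% of all genes were called lower. For goblet cell genes the difference was called lower for 16 of 19 (median -1.02), and in sham the same list gave 5 higher and 5 lower with a median log2FC of 0.09. Muc2 averaged 598 CPM in sham crypts and 674 in sham IEC, so the sham fractions were close where the hepatectomy fractions differed 2.78-fold (difference -1.30 ± 0.06). The difference was also called lower for 13 of 15 T and NK cell markers (median -1.22). In sham crypts 7 of these 15 were lower and 1 higher (median log2FC -0.26). It was called lower for 6 of 7 MHC class II genes as well (median -0.60), all 7 of which were higher in sham crypts (median log2FC 0.65). Of 21 Paneth cell genes, 18 were lower and 1 higher in sham crypts, the latter being Defa35 (means of 11.5 CPM in sham crypts and 1.91 in sham IEC, log2FC 2.59), which was lower in hepatectomy crypts, and the difference was called lower for 13 and higher for 2. Of 15 Notch pathway genes the difference was called lower for 4, among them Dll1 (-0.91), Dll4 (-1.06) and Atoh1 (-0.88), and higher for Nrarp (1.42) and Notch2 (0.71).

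Mitosis genes had a higher crypt over IEC ratio after hepatectomy for 14 of 29, ribosome biogenesis genes for 9 of 20 and S phase genes for 8 of 30, with none lower in any of these lists, where 9.15% of all genes were called higher. For Mki67 the sham means were 115 CPM in crypts and 89.4 in IEC (difference 0.83 ± 0.09), so the IEC levels lay farther apart between the settings than the crypt levels did. The same held for Ccnd1, at 244 CPM in sham crypts and 139 in sham IEC against 250 and 244 in the hepatectomy crypts and 53.8 and 50.1 in the hepatectomy IEC (difference 1.44). Stem cell genes gave 6 higher of 20, none lower, and for Lgr5 the difference was not called (-0.13 ± 0.17, adjusted p = 0.63). Enteroendocrine genes divided, 7 higher and 5 lower, Gcg at 1.51 and Chgb at 1.09 against Gip at -1.25.

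Gastric gland markers reversed between the settings. Tff1 (chr17:31161395-31165277), a trefoil peptide of the stomach, stood at 4.76 and 4.31 CPM in hepatectomy crypts and 1.41 and 1.5 in hepatectomy IEC, but averaged 3.33 in sham crypts and 13.8 in sham IEC. Of 7 tested markers the difference was called higher for 6, among them Gkn1 (3.26 ± 0.26) and Gkn2 (3.40 ± 0.27). Their summed level was 20.2 and 18.3 CPM of all counts in hepatectomy crypts, 10.2 and 9.69 in hepatectomy IEC, 15.2 and 15.5 in sham crypts and 42.9 and 38.1 in sham IEC. The labels do not give the gut segment, and the part of stomach or proximal duodenum RNA in these values was not tested.

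**Figure D5:**
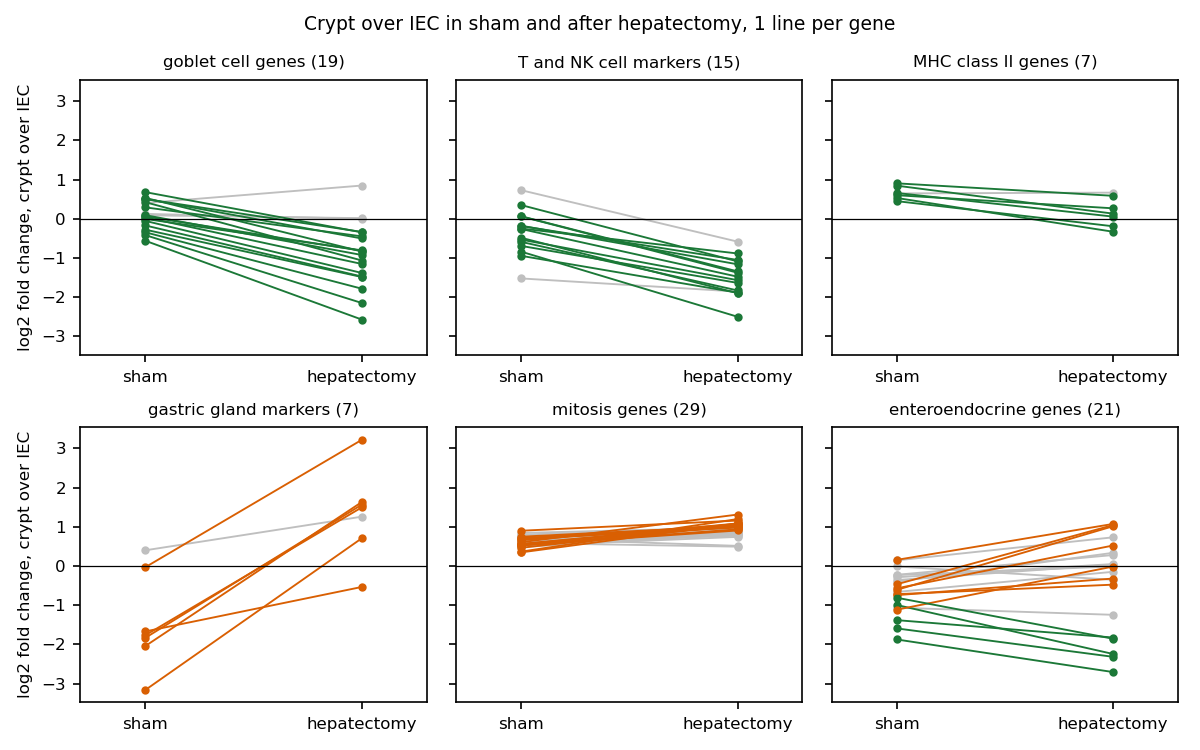
Log2 fold change of crypts over IEC in sham (left of each panel) and after hepatectomy (right) for 6 gene lists, 1 line per tested gene, orange where the difference was called higher, green where called lower, grey where not called. The difference was called lower for 16 goblet, 13 T and NK cell and 6 MHC class II genes, higher for 6 gastric and 14 of 29 mitosis genes, and in both directions among enteroendocrine genes.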

How the data were processed

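Bulk RNA-seq gene counts of 8 mouse small intestinal libraries, 2 per group in 4 groups, were analysed. Per the submitters' processing notes, STAR, Partek and mm10 were used, and the sources used here state no versions, annotation or strand setting. The deposited values are estimated counts per gene that the authors did not normalize, with 36.7% of values not whole, and they were rounded to whole numbers. Total counts ran from 26609786 to 43580050. Intervals for single libraries were not computed.

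Genes were kept by edgeR's filterByExpr (minimum count 10, minimum total 15), which left 18207 of 33840. Libraries were scaled by trimmed mean of M values and fitted with edgeR 4.0.16 in R 4.3.3 (quasi-likelihood F test, Benjamini-Hochberg adjustment, threshold 0.05) over all 8 libraries with 1 term per group and no block. The contrasts were crypts over IEC after hepatectomy, the same in sham, and their difference. Alternatives were other scaling, DESeq2 1.42.0, other filters, the hepatectomy libraries alone, a replicate block, a test against 2-fold change and leaving out each library. Simulated counts used the real library sizes, with the hepatectomy crypt means set to the hepatectomy IEC means. Known changes were put into 200 of 17736 genes, all above a minimum level in IEC. Of these, 74% of genes changed 1.5-fold and 94% of genes changed 2-fold were recovered, and 13 unchanged genes were called (6.6% of calls). A far larger share of genes was called in the real contrast, so these rates need not hold there. Promoter sequences came from RefSeq (GRCm38.p6). Of the genes in the files, 42.2% overlap another gene.

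The comparison, its 46 gene lists and the markers were chosen with earlier results of these data known. Named by rule were the 8 largest differences in each direction among called genes with no overlap and 5 CPM or more on average in whichever group was higher, leaving out predicted models, mitochondrial genes and immunoglobulin segments, the cell type markers, the 5 members of each list with the smallest p, the 5 largest differences from sham in each direction (5 CPM in the highest of the 4 groups) and the PEDF genes. Other list members were named after their values were seen, to show a range or an exception.

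The labels do not say whether equal replicate numbers pair the libraries. Deviations of same-numbered libraries from their group means correlated between -0.0161 and 0.028, over pairs within and between sham and hepatectomy. Crypt and IEC libraries gave 0.0262 in sham and -0.00815 after hepatectomy. With 2 libraries per group such values cannot show whether libraries were paired. No 2 libraries of a group agreed within counting noise. Some list members are counted but not reported here by name.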

Additional observations from a re-analysis of the deposited data

Results flagged for a closer look

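The results here are those for which the crypt over IEC contrast differed between hepatectomy and sham by a test of the difference (edgeR quasi-likelihood test, interaction contrast, Benjamini-Hochberg adjustment over 18207 genes). There were 1666 genes with a higher and 1833 with a lower contrast after hepatectomy.

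Genes were ranked among those called for the difference and averaging 5 CPM or more in the highest of the 4 groups. Predicted models and the other names left out above were not ranked. Genes whose hepatectomy crypt and IEC libraries overlapped were not ranked either, however large their difference. Some ranked genes are near 0 in the other groups: G0s2 averaged 6.55 CPM in hepatectomy IEC and Stox2 5.66 in sham crypts, each under 1 in the other groups. The largest lower differences in this ranking were Defa35 (-7.41), Erdr1 (-3.64), G0s2 (-3.50), an inhibitor of triglyceride lipase, Stox2 (-3.33) and Gdpd3 (-3.03). Defa35, a defensin with close copies, was higher in sham crypts than in sham IEC and lower in hepatectomy crypts. The largest higher differences in it were Tff1 (3.67), Gkn2 (3.40) and Gkn1 (3.26), all of the gastric gland list, the complement gene C3 (2.20) and the histone methyltransferase gene Suv39h2 (2.07). The call of G0s2 was lost in 3 of the 8 fits without 1 library. These left out the first sham crypt (-2.32), the first sham IEC (-3.13) and the first hepatectomy IEC library (-3.50).

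Of the cell type markers, the difference was higher for the stem cell gene Olfm4 (0.30), the cycling genes Mki67 (0.83), Top2a (0.41) and Ccnb1 (0.29), the enteroendocrine genes Chga (0.24) and Chgb (1.09) and the enterocyte gene Fabp1 (1.03). It was lower for the Paneth cell genes Lyz1 (-0.86), Ang4 (-1.52), Itln1 (-0.32) and Mmp7 (-1.47), the goblet cell genes Muc2 (-1.30), Clca1 (-1.73) and Tff3 (-1.44), the tuft cell gene Trpm5 (-0.38) and the enterocyte genes Alpi (-0.53) and Apoa4 (-0.33). The calls for Ccnb1, Chga and Trpm5 were lost under DESeq2 (adjusted p = 0.0609, 0.0535 and 0.0915) and in 7, 6 and 7 of the 8 fits without 1 library. Sham and hepatectomy libraries also differed in Gm10800 and in genes with a count (24341 to 26088 in sham, 29711 to 30400 after hepatectomy). Olfactory receptor genes summed to 62.5 to 82.3 CPM of all counts in sham and 131 to 164 after hepatectomy. The part of such differences between the sets of libraries was not tested, and surgery cannot be told apart from them.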

How the results depend on the processing

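The hepatectomy contrast kept its balance of higher and lower genes under other scaling, and no alternative run gave an opposite call for a gene called in it. DESeq2 gave 3942 higher and 3968 lower and shared 83.7% of the calls, and the 4 hepatectomy libraries alone gave 4433 and 4491. Leaving out 1 library gave 3955 to 4978 higher and 3903 to 4625 lower, in sham 2454 to 3631 and 2730 to 3647, and for the difference 1167 to 1612 and 999 to 1498. The lowest of these, 999, came without sham crypt replicate 1. A test against 2-fold change (glmTreat) gave 264 higher and 1039 lower after hepatectomy, 91 and 641 in sham, and 57 and 60 for the difference. The share of higher calls in the difference was 47.6%, and 57.4% without mitochondrial genes. Libraries of a group left with 1 member were assumed to vary like the other groups.

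With replicate number as a block, although the labels do not say that the numbers pair libraries, 4734 genes were higher and 4606 lower. This fit shared 97.6% of the calls. The block ended the calls of Mfng (adjusted p = 0.0584) and, for the difference, of Chga (0.0537) and Trpm5 (0.0543), and of no other gene whose call is printed.

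Values that changed sign were all of genes that were not called. In the order upper quartile scaling, no filter on low counts, stricter filter, without mitochondrial genes, and the setting chosen after seeing the data without CT010467.1, Gm10800, Lars2 and mitochondrial genes, as far as each changed sign, they were Ascl2 (0.0397, 0.00872, 0.0123 and -0.0338 to 0.0188 without 1 library), Bmi1 (0.0471, 0.0162, 0.0197 and -0.0807 to 0.0647 without 1 library), Ccne2 (-0.191 to 0.0732 without 1 library), Creb3l1 (-0.0369 and -0.0511 to 0.0964 without 1 library), Dgat1 (0.0384, 0.00744, 0.0110 and -0.133 to 0.106 without 1 library), Klk1 (0.00496, 0.0577, 0.0268, 0.0304 and -0.0198 to 0.0407 without 1 library), the difference from sham of Lgr5 (-0.358 to 0.0706 without 1 library), Pla2g2a (0.0340, 0.00304, 0.00668 and -0.0579 to 0.0178 without 1 library), Plxdc1 (-0.0342 to 0.997 without 1 library), Sox9 (-0.0228 and -0.0454 to 0.114 without 1 library) and Tph1 (0.0444, 0.0130, 0.0167 and -0.186 to 0.182 without 1 library).
The cause was not tested. Depth limits the lowest genes, such as Serpinf1.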

Other observations

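Further gene groups were assembled after seeing their values, so they are given as descriptions with no test of the group. Of all genes tested, 26.3% were higher in hepatectomy crypts and 25.6% lower. The difference from sham was called higher for 9.15%. Of 15 tested interferon-gamma-inducible GTPases, 10 were higher in hepatectomy crypts than IEC and 2 lower (median log2FC 1.38, and 1.36 in sham). Of 9 genes of the epithelial NADPH oxidases, 7 were higher and 0 lower (median log2FC 1.28, and 0.41 in sham), and the difference between the settings was called higher for 7. They include the oxidase Nox1, its organizer Noxo1 (0.69) and activator Noxa1 (1.28), the shared subunit Cyba (0.98) and Duoxa1 (1.73), which overlaps Duoxa2.

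Of 21 genes of MHC class I and peptide loading, 11 were higher in crypts and 8 lower (median log2FC 0.29, and 0.38 in sham). The shares over all genes tested were 26.3% and 25.6%. The immunoproteasome subunit Psmb8 stood at 807 and 808 against 318 and 317 CPM (log2FC 1.35) and the peptide transporter Tap1 at 250 and 248 against 80.0 and 79.2 (log2FC 1.64). Class I genes themselves went both ways, with H2-K1 at -0.49, H2-T23 at -1.07 and H2-Q1 at -1.91 beside H2-Q7 at 2.98, and close copies make the split of reads among them uncertain.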
